A study of Mus musculus with 17 samples.

Results

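The 9 transcripts described here encode proteins of neutrophils, namely the alarmins S100a8 and S100a9, the secreted proteins Retnlg and Il1b, the receptors Cxcr2 and Csf3r, and the granule proteins Mmp9, Lcn2 and Ngp. They were taken by symbol from a table of 47643 gene symbols, and all 9 were in it. The genes were chosen by a reading of the tumor differences in these same mice, so those differences are given as a description, without a test. RNA was sequenced from the diaphragm, the main muscle of breathing, of 17 male C57BL/6J mice aged 4 months. The Control group (n = 5) had no tumor and received mock injections, and the Control + rFibcd1 group (n = 5) had no tumor and received rFibcd1. The LLC group (n = 3) had been implanted in both flanks with cells of the Lewis lung carcinoma line, which grew into tumors, and received mock injections, and the LLC + rFibcd1 group (n = 4) carried the same tumors and received rFibcd1. rFibcd1 is a recombinant C-terminal fragment of mouse Fibcd1, given into the peritoneal cavity late in tumor growth. The study describes Fibcd1 as a factor secreted by muscle, the secreted form being cut from a transmembrane protein. The mock injection was the carrier, bovine serum albumin in phosphate-buffered saline, and a single tumor line grown under the skin in young males of a single strain limits the model.

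Neutrophils are short-lived white cells that are made in the bone marrow under the control of G-CSF, leave it and enter tissue along gradients of CXC chemokines, and carry ready-made granules of proteases and iron- or heme-binding proteins. S100A8 and S100A9 pair to form calprotectin, one of the most abundant proteins of the neutrophil cytosol, which binds metal ions and acts as an alarm signal when released. Resting skeletal muscle holds few neutrophils, and in a whole-muscle RNA sample more neutrophils and more RNA per neutrophil cannot be told apart.

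S100a8 (chr3:90668978-90670035, plus strand) and S100a9 (chr3:90692632-90695721, minus strand) are neighbours on chromosome 3 of the mouse build GRCm38 and are transcribed toward each other. Retnlg lies at chr16:48872621-48874496, Il1b at chr2:129364570-129371139, Cxcr2 at chr1:74153989-74161246 and Csf3r at chr4:126024550-126044440. Mmp9 lies at chr2:164940780-164955850, Lcn2 at chr2:32384633-32388252 and Ngp at chr9:110419747-110423012. All are protein-coding in GENCODE, and the values below are for the whole gene, summed over its exons.

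The sequence upstream of 4 of these genes is shown as examples in which the letters of a myeloid factor's motif were found. The transcripts of S100a8, S100a9 and Retnlg also varied together over the mice, as given below. So did those of Il1b and Cxcr2, for which no match was found, with r of 0.949 and 0.953 to S100a8. Ngp was too low to be included in that comparison. The sequence was taken from RefSeq on GRCm38.p6, where 8 of the 9 genes had an entry, from the 250 bases before the gene's start. Bases that GENCODE places inside the gene were left out of the lines shown, while the search for motifs covered the whole window. The letters TTGCNNAA, read here for the C/EBP family that drives granulocyte maturation, and GAGGAAG, read for PU.1, a regulator of all myeloid cells, were searched on both strands. Capitals mark the match, and each line reads 5′ to 3′ on the gene's own strand.
S100a8: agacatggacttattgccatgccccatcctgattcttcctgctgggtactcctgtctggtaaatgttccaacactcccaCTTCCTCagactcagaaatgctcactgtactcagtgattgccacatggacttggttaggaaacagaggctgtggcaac
S100a9: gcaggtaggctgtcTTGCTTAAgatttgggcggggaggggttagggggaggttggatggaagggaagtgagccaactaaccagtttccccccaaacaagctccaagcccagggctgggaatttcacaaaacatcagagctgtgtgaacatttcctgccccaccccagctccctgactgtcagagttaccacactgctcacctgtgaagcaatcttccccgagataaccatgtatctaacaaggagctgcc
Retnlg: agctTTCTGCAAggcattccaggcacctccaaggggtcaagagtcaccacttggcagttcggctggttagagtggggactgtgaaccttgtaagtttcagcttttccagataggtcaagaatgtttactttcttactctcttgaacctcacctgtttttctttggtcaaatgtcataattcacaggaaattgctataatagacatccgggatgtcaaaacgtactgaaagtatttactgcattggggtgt
Ngp: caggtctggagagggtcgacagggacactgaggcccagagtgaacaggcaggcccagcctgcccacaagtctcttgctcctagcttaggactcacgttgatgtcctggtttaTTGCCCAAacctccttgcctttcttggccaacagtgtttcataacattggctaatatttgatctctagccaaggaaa

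The S100a8 sequence is chr3:90668821-90668977 and holds the PU.1 letters on the opposite strand, 171 to 165 bases before the RefSeq start. The S100a9 sequence is chr3:90695722-90695971 with the C/EBP letters 236 to 229 bases before the start. The Retnlg sequence is chr16:48872358-48872607 with the C/EBP letters on the opposite strand, 246 to 239 bases before the start. The Ngp sequence is chr9:110419558-110419746 with the C/EBP letters 138 to 131 bases before the start. Another set of letters, for NF-kB (GGGA, any 4 bases, then CC), was found on the opposite strand before Csf3r, 129 to 120 bases from its start, and outside the gene. Other matches lay inside the gene as GENCODE draws it, namely the PU.1 letters in the Csf3r window, another C/EBP match in the Ngp window, and the C/EBP and PU.1 letters in the Lcn2 window, which is wholly within the gene. The Il1b and Cxcr2 windows held none of the 3 motifs. Of 32851 RefSeq windows of the same length, 9.56% held the C/EBP letters, 10.6% the PU.1 letters and 17.6% the NF-kB letters. A match is a run of letters only, and binding of a factor was not measured.

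The deposited values are TPM, reads divided by gene length and scaled to the same total in every library, so levels can be compared between genes. The depth recovered from the steps of low values was 50700000 to 54500000 reads a mouse. Of the 9 genes, 8 had at least 1 TPM in at least 3 mice and entered the test across 13305 genes. Ngp did not, and its values below are from a fit without that filter. Several of the 8 genes reached 1 TPM mainly in tumor-bearing mice, so counts over them are not evidence of a tumor difference.

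The alarmin transcripts were the most abundant of the 9 in tumor-bearing mice. S100a9 stood at 7.55, 0.532, 5.36, 1.99 and 5.00 TPM in the 5 Control mice and at 25.5, 61.7 and 48.0 TPM in the 3 LLC mice. In the LLC + rFibcd1 mice it stood at 53.7, 125, 40.8 and 34.2 TPM, and in the Control + rFibcd1 mice at 14.4, 2.11, 46.3, 1.29 and 2.94 TPM. Every tumor-bearing mouse was therefore above every tumor-free mouse but one, the Control + rFibcd1 mouse with replicate number 3, which lay among them. The mean of Control was 4.09 ± 2.80 TPM (SD, n = 5) and that of Control + rFibcd1 13.4 ± 19.2 TPM (SD, n = 5). The tumor-bearing means were 45.1 ± 18.3 TPM for LLC (SD, n = 3) and 63.4 ± 41.8 TPM for LLC + rFibcd1 (SD, n = 4). On the log2(TPM + 1) scale used for all differences below, S100a9 differed by 3.33 ± 0.85 (SE) between LLC and Control and by 2.95 ± 0.78 (SE) between LLC + rFibcd1 and Control + rFibcd1.

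S100a8 followed the same order at a lower level. It stood at 3.67, 0.171, 2.41, 0.692 and 3.76 TPM in Control, at 12.2, 30.6 and 24.1 TPM in LLC, at 23.4, 56.9, 17.4 and 14.2 TPM in LLC + rFibcd1, and at 6.20, 0.792, 20.5, 0.809 and 1.22 TPM in Control + rFibcd1. The LLC values do not overlap the Control values, whereas the third Control + rFibcd1 mouse overlaps the tumor-bearing mice of both groups. The difference was 3.01 ± 0.76 (SE) between LLC and Control and 2.63 ± 0.70 (SE) among the mice given rFibcd1. The ratio of S100a9 to S100a8 TPM lay between 1.99 and 2.40 in the 7 tumor-bearing mice and between 1.33 and 3.10 in the 10 tumor-free mice, where as few as 2.99 reads lay behind an S100a8 value.

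**Figure D1:**
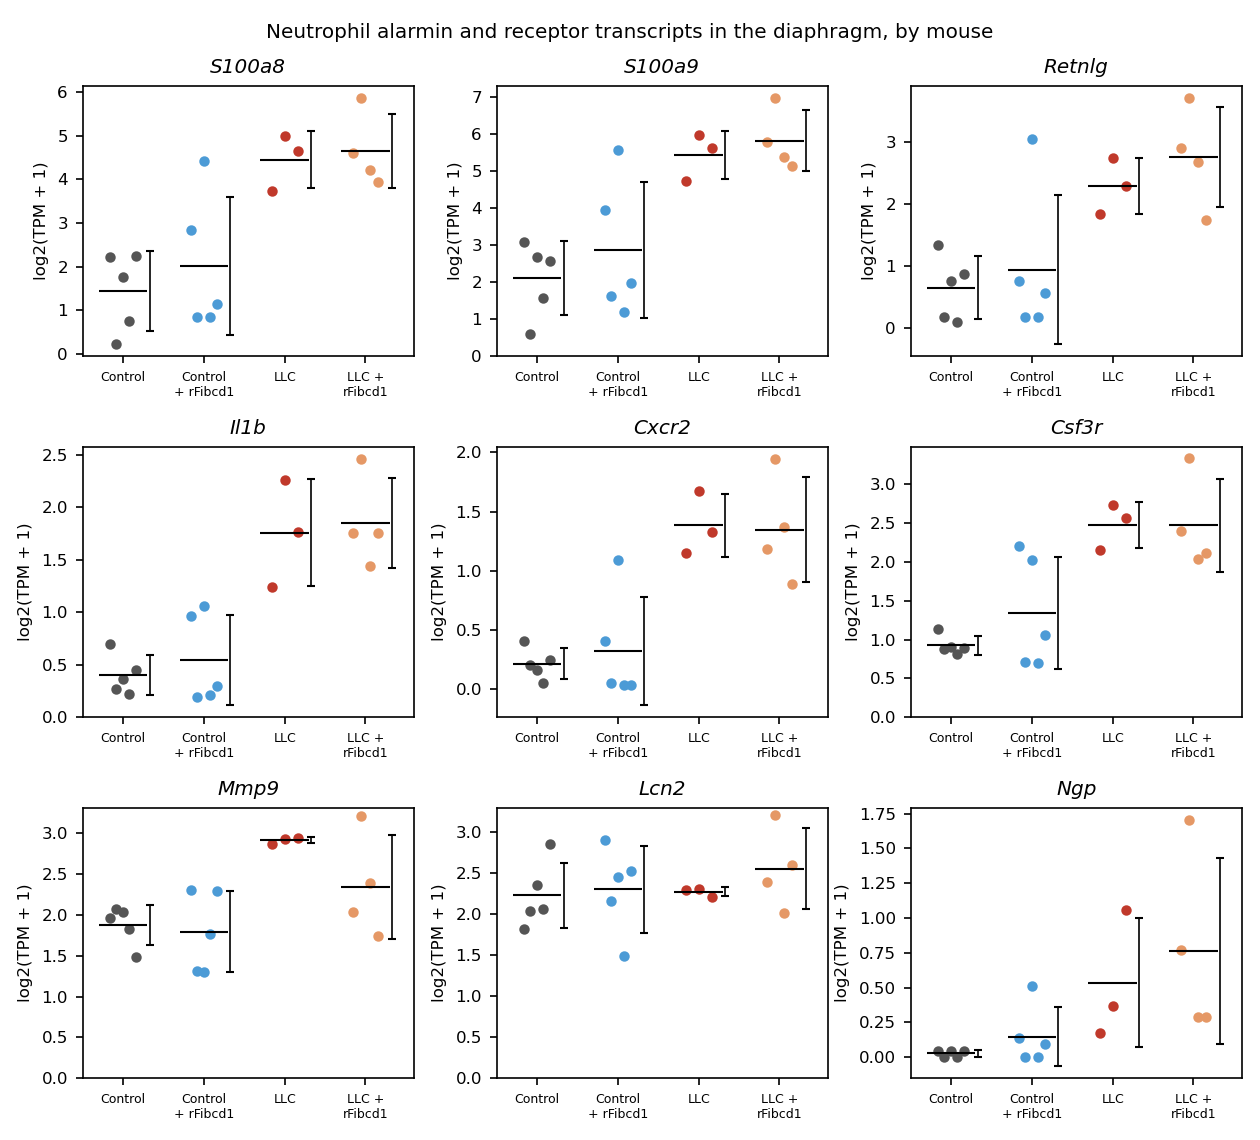
Level of each of the 9 transcripts as log2(TPM + 1), vertical axis, in every mouse (points) of the 4 groups, with the group mean (line) and SD (bar). S100a8, S100a9, Retnlg, Il1b, Cxcr2, Csf3r and Ngp are higher in both tumor-bearing groups, Lcn2 is level, and 1 Control + rFibcd1 mouse lies among the tumor-bearing mice for S100a8, S100a9, Retnlg, Cxcr2 and Ngp, and another does for Csf3r. For Mmp9, tumor-free mice overlap the LLC + rFibcd1 group but not LLC.

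Retnlg encodes a resistin-like protein that is made by neutrophils and their precursors. Its level was 1.51, 0.130, 0.687, 0.0658 and 0.817 TPM in Control and 2.57, 5.64 and 3.87 TPM in LLC. It was 6.48, 12.01, 5.36 and 2.32 TPM in LLC + rFibcd1 and 0.681, 0.129, 7.24, 0.123 and 0.465 TPM in Control + rFibcd1. The 7.24 TPM of the third Control + rFibcd1 mouse was exceeded by only 1 of the other mice. The difference was 1.64 ± 0.57 (SE) between LLC and Control and 1.81 ± 0.53 (SE) among the mice given rFibcd1.

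Il1b encodes interleukin-1 beta, a cytokine made as an inactive precursor by neutrophils, monocytes and macrophages. It stood at 0.626, 0.208, 0.285, 0.168 and 0.369 TPM in Control, 0.955, 0.144, 1.09, 0.157 and 0.233 TPM in Control + rFibcd1, 1.37, 3.81 and 2.41 TPM in LLC, and 2.37, 4.50, 1.71 and 2.38 TPM in LLC + rFibcd1. It was the one transcript of the 8 in which all 7 tumor-bearing mice lay above all 10 tumor-free mice, the lowest tumor-bearing value being 1.37 TPM and the highest tumor-free value 1.09 TPM. Of all genes tested, 1.74% had this pattern. The difference was 1.36 ± 0.27 (SE) between LLC and Control and 1.30 ± 0.25 (SE) among the mice given rFibcd1.

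The receptors of the group were present at lower levels than the alarmins in tumor-bearing mice, at most 2.84 TPM for Cxcr2 and 9.13 TPM for Csf3r. Cxcr2, the receptor for the CXC chemokines that draw neutrophils out of the marrow and into tissue, stood at 0.0394 to 0.326 TPM in Control (median 0.156) and at 1.22, 2.20 and 1.50 TPM in LLC. In LLC + rFibcd1 it stood at 1.28, 2.84, 1.59 and 0.849 TPM, and in Control + rFibcd1 at 0.326, 0.0386, 1.13, 0.0246 and 0.0265 TPM. Csf3r, the receptor for G-CSF, stood at 1.20, 0.846, 0.868, 0.765 and 0.860 TPM in Control and at 3.43, 5.62 and 4.89 TPM in LLC. It stood at 4.25, 9.13, 3.12 and 3.33 TPM in LLC + rFibcd1 and at 3.59, 0.642, 3.06, 0.623 and 1.08 TPM in Control + rFibcd1. The Control + rFibcd1 mice thus fell apart for Csf3r, with replicate 1 above 3 of the 7 tumor-bearing mice, replicate 3 just below the lowest of them, and the other 3 within or below the Control range. Between LLC and Control the difference was 1.17 ± 0.25 (SE) for Cxcr2 and 1.55 ± 0.35 (SE) for Csf3r, and among the mice given rFibcd1 it was 1.02 ± 0.23 (SE) and 1.14 ± 0.32 (SE).

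The 3 granule proteins did not move alike. Mmp9, gelatinase B, a collagen-degrading protease of tertiary granules that macrophages and other cells also make, stood at 1.79 to 3.22 TPM in Control (median 2.89) and at 6.30, 6.63 and 6.68 TPM in LLC. In LLC + rFibcd1 it stood at 3.11, 8.26, 4.25 and 2.34 TPM, so that 2 of these 4 mice lay within the Control range. In Control + rFibcd1 it stood at 3.93, 1.48, 1.46, 2.41 and 3.88 TPM. The difference was 1.04 ± 0.30 (SE) between LLC and Control and 0.55 ± 0.27 (SE) among the mice given rFibcd1.

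Lcn2 encodes lipocalin-2, an iron-siderophore-binding protein of specific granules that epithelial, fat and other cells also make. It stood at 2.53 to 6.25 TPM in Control (median 3.19), at 1.80 to 6.47 TPM in Control + rFibcd1 (median 4.47), at 3.90, 3.95 and 3.62 TPM in LLC, and at 4.25, 8.22, 3.05 and 5.03 TPM in LLC + rFibcd1. The groups overlap throughout. The difference was 0.044 ± 0.30 (SE) between LLC and Control and 0.25 ± 0.28 (SE) among the mice given rFibcd1, and the first of these turned negative under other scalings of the libraries, to -0.27 at the lowest.

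Ngp encodes neutrophilic granule protein, a cystatin-like protein of immature neutrophils, and was close to the detection limit. It rested on 0 or 1 read in each Control mouse, 4, 9 and 32 reads in the LLC mice, 22, 69, 7 and 7 reads in the LLC + rFibcd1 mice, and 3, 0, 13, 0 and 2 reads in the Control + rFibcd1 mice. These correspond to at most 0.0342 TPM in Control, 0.131 to 1.08 TPM in LLC, 0.222 to 2.25 TPM in LLC + rFibcd1 and 0 to 0.426 TPM in Control + rFibcd1. LLC values did not overlap Control values, and the third Control + rFibcd1 mouse again lay among the tumor-bearing mice.

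In order of mean TPM in LLC, S100a9 (45.1) was followed by S100a8 (22.3), Mmp9 (6.53), Csf3r (4.65), Retnlg (4.03), Lcn2 (3.82), Il1b (2.53), Cxcr2 (1.64) and Ngp (0.502). The ranges of neighbours in this order overlapped except for those of S100a8 and Mmp9, Mmp9 and Csf3r, and Cxcr2 and Ngp. In Control the order differed. S100a9 (4.09) was followed by Lcn2 (3.83), Mmp9 (2.71) and S100a8 (2.14), with overlapping ranges, and then by Csf3r (0.908), Retnlg (0.641), Il1b (0.331), Cxcr2 (0.167) and Ngp (0.0201).

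Over the 8 genes that passed the filter, the median difference was 1.45 between LLC and Control, 1.22 between LLC + rFibcd1 and Control + rFibcd1, and 1.34 between all tumor-bearing and all tumor-free mice. The medians over all genes tested were 0.16, 0.11 and 0.13. The offset of 1 TPM compresses the differences of the lower transcripts. With 0.1 in its place the LLC difference was 2.88 ± 1.00 (SE) for Retnlg, 2.59 ± 0.55 (SE) for Il1b and 2.76 ± 0.67 (SE) for Cxcr2, and among the mice given rFibcd1 it was 3.03 ± 0.92 (SE), 2.47 ± 0.51 (SE) and 2.63 ± 0.61 (SE). For 7 of the 8 genes, all but Lcn2, every LLC value lay above every Control value, as it did for 33.6% of all genes. Among the mice given rFibcd1 this held for 1 gene, Il1b, against 7.43% of all genes. These counts belong to the differences by which the genes were chosen, and nothing is read from them. Both comparisons draw on separate mice.

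**Figure D2:**
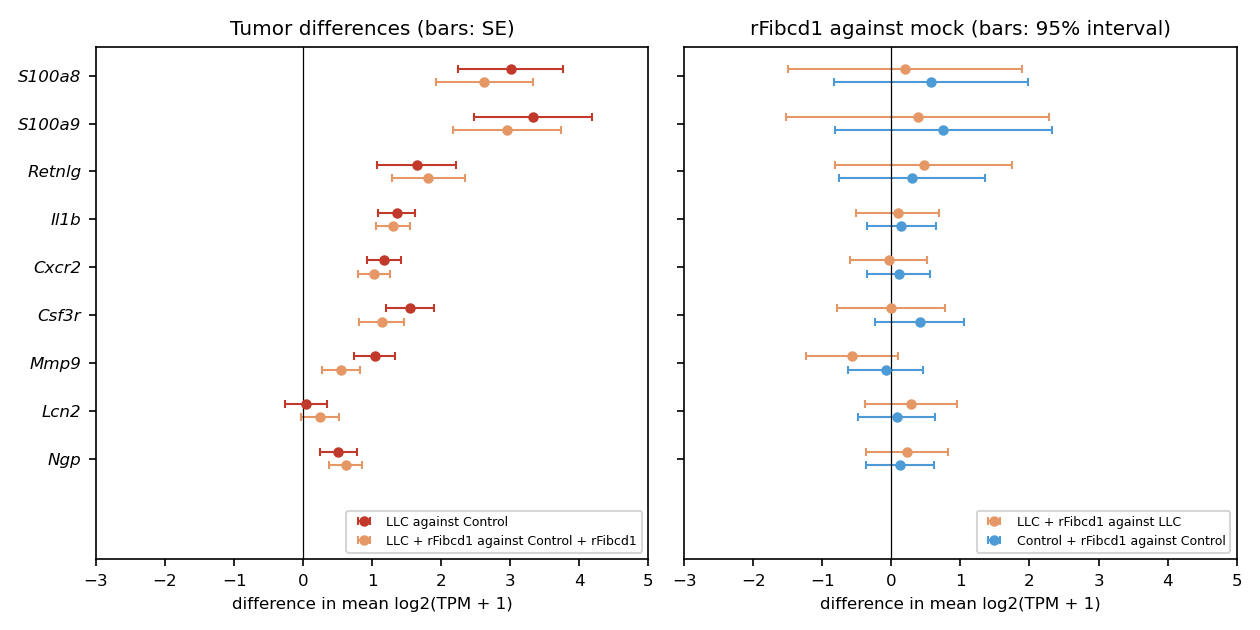
Difference in mean log2(TPM + 1), horizontal axis, for each of the 9 transcripts. The left panel shows the tumor differences with SE bars, from 3.33 for S100a9 to 0.044 for Lcn2, and the right panel shows rFibcd1 against mock with 95% intervals, all of which include 0.

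Whether rFibcd1 changed these transcripts was tested with limma over all 13305 genes, although the reading by which the genes were chosen had included LLC + rFibcd1 mice. None of the 8 genes passed an adjusted p of 0.05 in tumor-bearing mice, where 0.113% of all genes did, and none had an unadjusted p under 0.05, as 3025 of all genes (22.7%) did. A limma fit on the 7 tumor-bearing mice alone called 0 of all genes, with 2168 at an unadjusted p under 0.05. Exact permutation tests gave no p under 0.229 for any of the 9 genes, the smallest possible with 3 against 4 mice being 0.0286. S100a9 was 0.38 higher in LLC + rFibcd1 than in LLC (95% interval -1.52 to 2.28), and S100a8 was 0.20 higher (95% interval -1.50 to 1.90). The intervals are wide for the alarmins, and the data leave room for a change of more than 1 log2 unit in both directions. They are narrower for Il1b, at 0.094 (-0.51 to 0.70), Cxcr2, at -0.037 (-0.59 to 0.52), and Csf3r, at -0.0053 (-0.79 to 0.78). Retnlg differed by 0.47 (-0.81 to 1.75) and Lcn2 by 0.28 (-0.39 to 0.95).

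Mmp9 was the member with the lowest p between LLC + rFibcd1 and LLC. Its mean was 4.49 ± 2.63 TPM in LLC + rFibcd1 (SD, n = 4) against 6.53 ± 0.207 in LLC (SD, n = 3), a log2 difference of -0.57 (95% interval -1.23 to 0.093, limma adjusted p = 0.258, exact permutation p = 0.229). It was lower than every LLC mouse in 3 of the 4 LLC + rFibcd1 mice, and the remaining mouse, replicate 2, was the highest of all 17. No member had values without overlap between LLC + rFibcd1 and LLC, where 14.6% of all genes did in one direction or the other.

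That LLC + rFibcd1 mouse was the highest of 17 for all 9 transcripts, Lcn2 and Ngp included. Without it, S100a9 differed by -0.0056 and S100a8 by -0.20 between LLC + rFibcd1 and LLC, so the direction for both turned. For S100a8 it also turned without LLC replicate 1, to -0.17. Mmp9 moved from -0.57 to -0.86 ± 0.27 (SE) without the LLC + rFibcd1 mouse, with an unadjusted limma p of 0.00605 and an adjusted p of 0.121, and its interaction from -0.49 to -0.77 ± 0.34 (SE), with an unadjusted limma p of 0.0367 and an adjusted p of 0.456. Without LLC + rFibcd1 replicate 4, by contrast, Mmp9 differed by -0.37 between LLC + rFibcd1 and LLC. The tumor differences among rFibcd1 mice were smaller without replicate 2, with a median of 0.97 over the 8 genes and a fall from 0.55 to 0.26 for Mmp9.

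In tumor-free mice limma found no gene past an adjusted p of 0.05, either among the 8 or among all 13305 genes (0%), and at an unadjusted p under 0.05 for 0 members and 584 of all genes. S100a9 differed by 0.76 (95% interval -0.82 to 2.33, limma adjusted p = 0.927) between Control + rFibcd1 and Control, S100a8 by 0.58 (-0.83 to 1.99) and Csf3r by 0.41 (-0.24 to 1.06). No member separated these groups without overlap, against 0.812% of all genes. Without the third Control + rFibcd1 mouse S100a9 differed by 0.080, S100a8 by -0.021 and Retnlg by -0.23. The interaction asks whether the tumor difference itself differs between mock and rFibcd1 mice. It passed for none of the 8 genes and for 0% of all genes, and at an unadjusted p under 0.05 for 0 members and 1142 of all genes. The adjusted p of the members, from limma, ran from 0.692 for Mmp9, with an interaction of -0.49 (95% interval -1.34 to 0.37), to 0.970 for Il1b. For Ngp, in the fit without a filter, the adjusted p was 0.660 in tumor-bearing mice, 0.996 in tumor-free mice and 0.928 for the interaction.

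A set of 6 transcripts varied together from mouse to mouse. Over the 15 pairs of the 6 transcripts S100a8, S100a9, Retnlg, Il1b, Cxcr2 and Csf3r, Pearson's r across the 17 mice ran from 0.884 to 0.995, and from 0.722 to 0.986 after each group's mean had been subtracted. The last step takes out the tumor difference that all of them share. The pair with the highest r was S100a8 and S100a9. Mmp9 followed the others less closely, with r from 0.239 to 0.695 over mice and from 0.0798 to 0.449 within groups, and so did Lcn2, with 0.239 to 0.515 over mice and 0.281 to 0.644 within groups. These are descriptions over 17 libraries, and all values of a mouse share its library and its makeup of cells. LLC + rFibcd1 replicate 2 was the highest of the 17 mice for each of the 6 transcripts. Control + rFibcd1 replicate 3 had S100a9 at 46.3 TPM, against at most 14.4 TPM in the other mice of its group. No r was computed without these mice, so how far they carry these values was not tested.

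**Figure D3:**
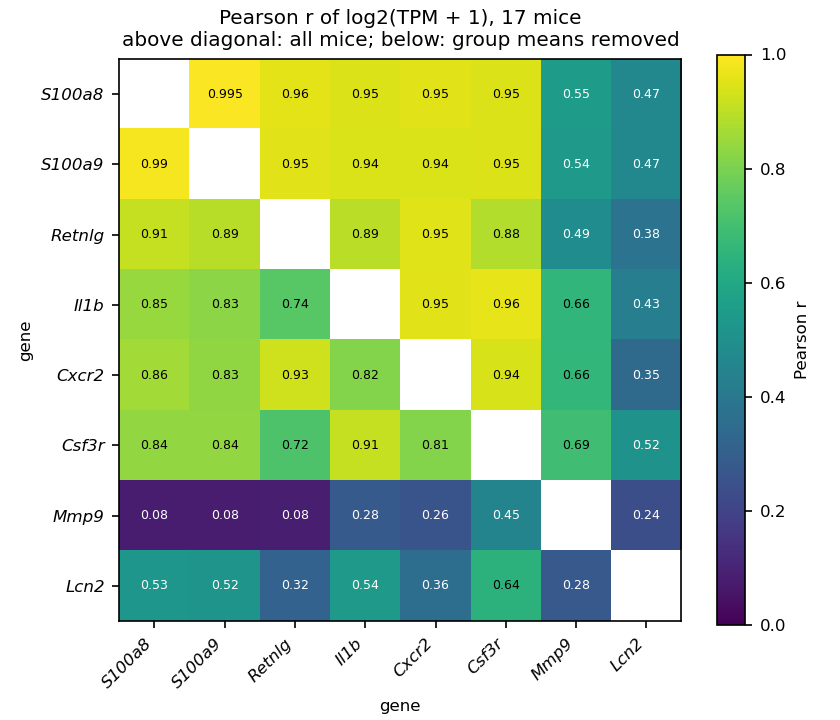
Pearson's r of log2(TPM + 1) between the 8 transcripts that passed the filter, over 17 mice (above the diagonal) and after each group's mean was subtracted (below). The first 6 genes form a block with r of at least 0.884 above the diagonal, while the rows of Mmp9 and Lcn2 reach at most 0.695.

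The genes whose pattern was most like the mean of the 8, outside the 9, were ranked by Pearson's r over the 17 mice. Slfn4, a Schlafen-family gene of myeloid cells, came first with r = 0.918, followed by Ifitm1 (0.890), Cd300lf (0.886), Stfa2l1 (0.882) and Stat3 (0.880). Control mice averaged 0.217 ± 0.0675 TPM of Slfn4 (SD, n = 5) and Control + rFibcd1 mice 0.696 ± 0.752 TPM (SD, n = 5). LLC mice averaged 1.20 ± 0.269 TPM (SD, n = 3) and LLC + rFibcd1 mice 1.32 ± 0.614 TPM (SD, n = 4). Slfn4 was also first after the group means had been subtracted, with r = 0.857, whereas the next genes were then Cdkn1a (0.793), Etf1 (0.769), Gpatch11 (0.769) and Emd (0.759). Slfn4 and Stfa2l1 belong to families of closely similar genes, and the counting could have divided reads between copies. Neither ranking was repeated with single mice left out.

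The genes around these transcripts were read from 9 lists of 84 genes with a row in the table, of which 54 passed the filter. Between tumor-bearing and tumor-free mice, 28 of the 54 were higher and 1 was lower at a limma adjusted p of 0.05, against 38.8% and 5.98% of all genes, and their median difference was 0.53. The scaling of the libraries bears on these counts. The median of all genes moved from 0.13 to 0.011 with median-ratio scaling and to -0.057 with quantile normalization, and of all calls 86.7% were higher with TPM as deposited, 54.7% with median-ratio scaling, 35.4% with quantile normalization and 70.0% without mitochondrial genes. Of the 28 genes, 22, 19 and 22 remained higher under these 3 settings, while the genes called lower became 2, 3 and 2. The counts by list given next are to be set against the 38.8% of all genes called higher with TPM as deposited, and against 19.8%, 13.7% and 24.6% under the other 3 settings in the same order. Between LLC and Control, 24 were higher and 0 lower, against 29.7% and 6.02% of all genes, and 0 of 54 passed without the LLC mouse with replicate number 3. That count was 8 without LLC replicate 1, and 14, 14 and 12 without Control replicates 3, 4 and 5. Among mice given rFibcd1, 8 were higher and 1 lower, against 7.02% and 1.04%. The total of 9 became 22 without Control + rFibcd1 replicate 1, 5 without Control + rFibcd1 replicate 2, and 3 and 4 without LLC + rFibcd1 replicates 2 and 3. In the limma tests of rFibcd1 and of the interaction 0 of the 54 genes passed, while at an unadjusted p under 0.05 there were 10 in tumor-bearing mice, 0 in tumor-free mice and 3 for the interaction, against 22.7%, 4.39% and 8.58% of all genes.

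No chemokine that binds Cxcr2 was called in the tumor comparisons. Of 5 listed ligands, Cxcl1 and Ppbp passed the filter and neither was called, with tumor differences of -0.074 ± 0.28 (SE) and 0.31 ± 0.45 (SE). Cxcl1 averaged 1.67 ± 1.46 TPM in tumor-free mice (SD, n = 10) and 1.44 ± 0.901 in tumor-bearing mice (SD, n = 7). Cxcl2 and Cxcl5 stayed at or below 0.377 TPM in every mouse, and Cxcl3 was listed at 0 in all but 1 mouse. Csf3, which encodes G-CSF, the ligand of Csf3r, was at most 0.0292 TPM in any mouse. G-CSF can reach tissue and marrow through the blood, and the diaphragm transcript alone was measured here.

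Of the genes of G-CSF signaling and granulocyte transcription, 3 of 6 tested rose in tumor-bearing mice, a share near the 38.8% of all genes, and 2 of 6 under each of the other 3 scalings. Stat3, which carries the G-CSF and IL-6 signal, was higher by 0.37 ± 0.061 (SE, limma adjusted p = 0.00114), Spi1, which encodes PU.1, by 0.97 ± 0.25 (SE), and Socs3, a feedback inhibitor of these receptors, by 0.69 ± 0.24 (SE), a call that Socs3 lost under all 3 other scalings. Stat3 averaged 21.3 ± 1.96 TPM in tumor-free and 27.7 ± 2.44 TPM in tumor-bearing mice (SD, n = 10 and 7). Every tumor-bearing value was higher than every tumor-free value, as for 1.74% of all genes. The margin was thin, with a lowest tumor-bearing value of 24.3 TPM and a highest tumor-free value of 24.0 TPM. With median-ratio scaling the Stat3 difference was 0.23 ± 0.046 (SE). Cebpd, a C/EBP factor, differed by 0.47 ± 0.24 (SE) and did not pass.

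In the interleukin-1 system, 4 of 7 genes tested rose. Il1r1, the signaling receptor, was higher by 0.63 ± 0.12 (SE, limma adjusted p = 0.00224), at 2.86 ± 0.658 TPM in tumor-free and 4.96 ± 0.977 TPM in tumor-bearing mice (SD, n = 10 and 7). Myd88, its adaptor, was higher by 0.60 ± 0.11 (SE), and Casp1 and Pycard, which form the inflammasome that cleaves the Il1b precursor, by 0.79 ± 0.24 (SE) and 0.74 ± 0.24 (SE), the Pycard call being lost with quantile normalization. The decoy receptor Il1r2 and the antagonist Il1rn did not pass the filter, the latter averaging 0.105 ± 0.0467 TPM in tumor-free and 0.374 ± 0.177 TPM in tumor-bearing mice (SD, n = 10 and 7).

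For the receptors of S100A8 and S100A9, 2 of 5 rose, near the share of all genes, namely Ly96, the MD-2 partner of TLR4, by 0.58 ± 0.18 (SE), and Bsg, basigin, by 0.10 ± 0.031 (SE), which is below the median of all genes and turned to -0.040 with median-ratio scaling. Tlr4 differed by 0.30 ± 0.12 (SE) and Ager, which encodes RAGE, by 0.28 ± 0.11 (SE), with limma adjusted p of 0.0604 and 0.0503. Cd14, a co-receptor of TLR4, differed by 0.48 ± 0.21 (SE, limma adjusted p = 0.0758). Among the other S100 genes 7 of 8 rose, and 4 under each of the other 3 scalings, led by S100a11 (0.76 ± 0.16, SE) and S100a4 (1.06 ± 0.25, SE), with S100a13 and S100a6 at 0.46 ± 0.11 (SE) and 0.56 ± 0.15 (SE). These S100 genes are made by many cell types, and their tumor-free levels, for example 129 ± 31.9 TPM for S100a11 (SD, n = 10), were far above those of S100a8 and S100a9.

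Among neutrophil surface receptors, 8 of 12 tested rose and none fell. Csf2rb2 and Csf2rb, near-identical beta chains of the GM-CSF and IL-3 receptors between which reads could have been divided, led with 1.71 ± 0.21 (SE) and 1.70 ± 0.27 (SE). Fcgr4, an activating receptor for IgG, followed with 0.58 ± 0.13 (SE) and Ptafr, the platelet-activating factor receptor, with 0.65 ± 0.19 (SE). Of 12 other granule protein genes 4 passed the filter and 1 rose, Prtn3, proteinase 3, by 0.85 ± 0.28 (SE), a call lost with quantile normalization. Padi4 differed by 0.48 ± 0.30 (SE) and did not pass. Hp, haptoglobin, differed by 1.42 ± 0.56 (SE, limma adjusted p = 0.0505) and Lyz2, lysozyme, by 0.78 ± 0.38 (SE, limma adjusted p = 0.0992), and both are also made outside neutrophils.

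The inhibitors of Mmp9 moved apart. Timp1 rose by 0.71 ± 0.12 (SE, limma adjusted p = 0.00137), from 2.85 ± 0.616 TPM in tumor-free to 5.39 ± 1.66 TPM in tumor-bearing mice (SD, n = 10 and 7), and Timp3 fell by 0.30 ± 0.088 (SE, limma adjusted p = 0.0150). Timp4 differed by -0.41 ± 0.16 (SE) and Timp2 by 0.36 ± 0.18 (SE), and neither passed with TPM as deposited. Timp4 was called lower under each of the other 3 scalings, at -0.55, -0.60 and -0.51, with limma adjusted p of 0.0248, 0.0186 and 0.0349. Of the resistin family and the receptors for lipocalin-2, Retnla, a resistin-like protein of alternatively activated macrophages and fat, rose by 1.39 ± 0.29 (SE, limma adjusted p = 0.00305), and Slc22a17, a lipocalin-2 receptor, by 0.28 ± 0.11 (SE, limma adjusted p = 0.0495), a call lost under the other 3 scalings. Lrp2, megalin, another receptor for lipocalin-2, differed by 0.29 ± 0.16 (SE) and did not pass. Retn, resistin, a product of fat cells in mice, differed by 1.00 ± 0.49 (SE) and did not pass.

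**Figure D4:**
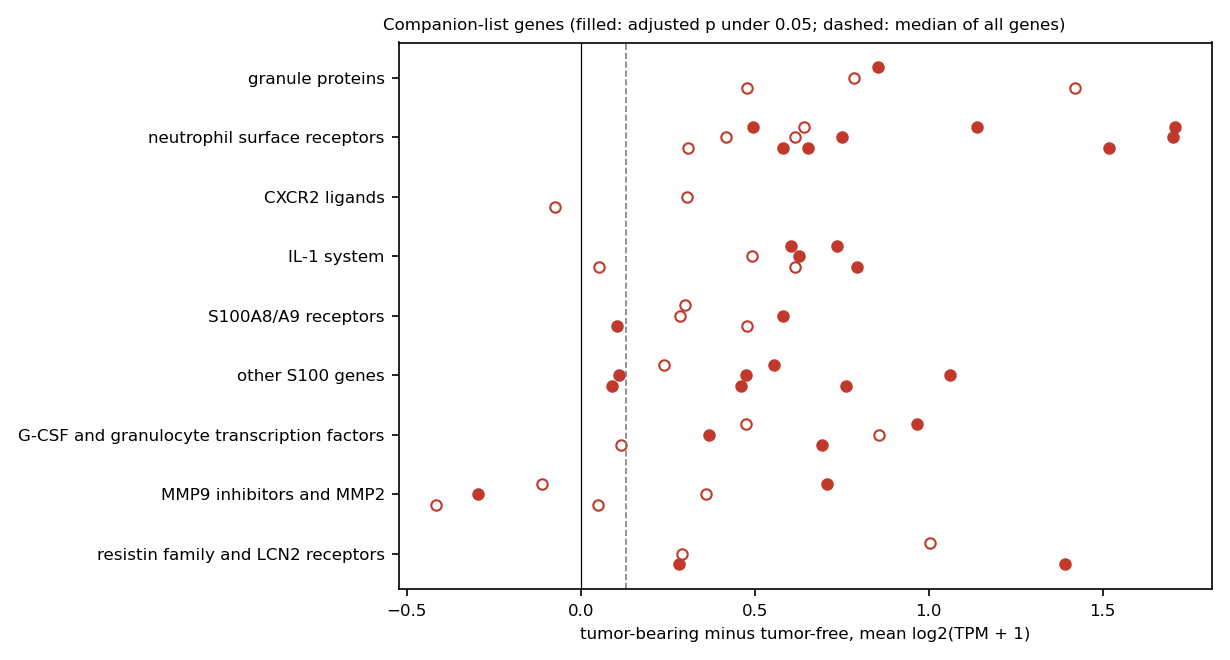
Difference in mean log2(TPM + 1) between 7 tumor-bearing and 10 tumor-free mice, horizontal axis, for the 54 tested genes of the 9 lists (points). Filled points passed a limma adjusted p of 0.05, 28 of them to the right of 0 and 1, Timp3, to the left, and the dashed line is the median of all genes, 0.13.

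Markers of some other blood cells moved with these transcripts. The 4 neutrophil markers outside the 9 genes summed to 0.459 to 3.75 TPM in tumor-free mice and to 1.68 to 5.43 TPM in tumor-bearing mice. Only 2 of the 4 passed the filter, and 1 of these was higher at a limma adjusted p of 0.05. Ly6g, the marker most used to define mouse neutrophils, was at most 0.508 TPM in any mouse. The 10 monocyte and macrophage markers summed to 102 to 428 TPM in tumor-free and 188 to 454 TPM in tumor-bearing mice, and 8 of the 10 were higher at a limma adjusted p of 0.05. All 6 B cell markers, all 5 T cell markers and all 6 red cell markers were higher as well, and 6 of 8 skeletal muscle markers were lower, with a summed level of 52085 to 61411 TPM in tumor-bearing and 58855 to 66597 TPM in tumor-free mice. No gene was called among 5 tested platelet markers, 4 mast cell markers and 1 eosinophil marker. These marker counts are with TPM as deposited, where 38.8% of all genes were called higher and 5.98% lower. The share called higher was 19.8% with median-ratio scaling, 13.7% with quantile normalization and 24.6% without mitochondrial genes, and marker counts under these settings are not given here. The sums for red cells ran from 3848 to 20823 TPM in tumor-free and from 14169 to 46940 TPM in tumor-bearing mice. The part of these cells, or of blood left in the muscle, in the levels of the 9 transcripts was not tested.

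S100a9 and the B cell markers parted in single mice. The third Control + rFibcd1 mouse, with S100a9 at 46.3 TPM, had a B cell sum of 3.61 TPM, a monocyte and macrophage sum of 102 TPM, the lowest of all mice, and a red cell sum of 9936 TPM. Its skeletal muscle sum, 66387 TPM, was at the upper end of its group, and its Mmp9, at 1.46 TPM, was the lowest of the 17, while Retnlg ranked 2 and Csf3r 9 of 17 in it. The first Control + rFibcd1 mouse, in contrast, had S100a9 at 14.4 TPM with a monocyte and macrophage sum of 428 TPM and a B cell sum of 138 TPM. Across the tumor-bearing groups the median B cell sum was 246 TPM in LLC and 74.2 TPM in LLC + rFibcd1, while median S100a9 was 48.0 TPM and 47.3 TPM.

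**Figure D5:**
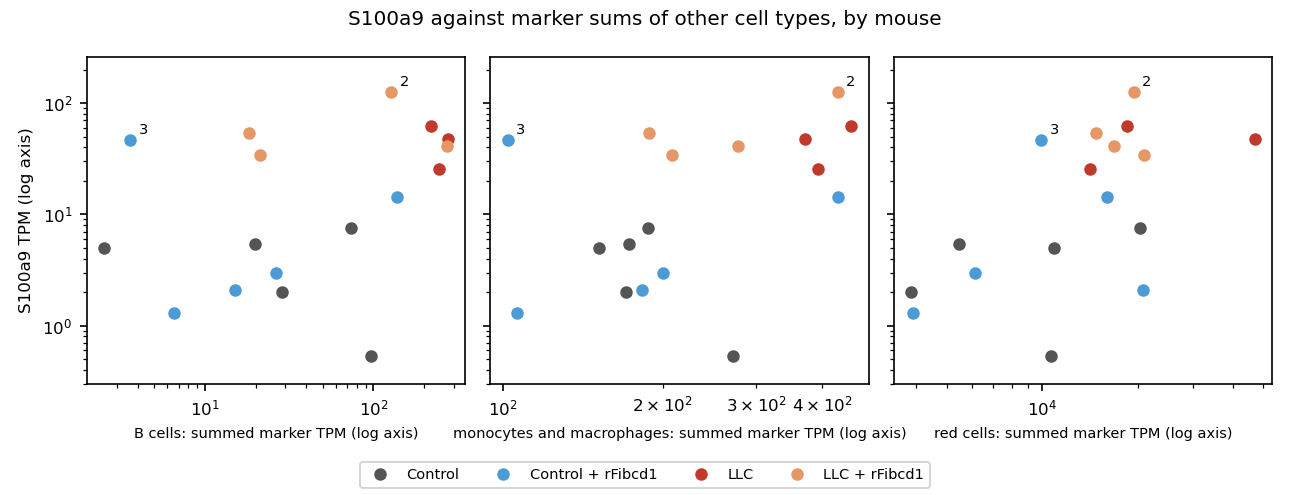
S100a9 TPM, vertical log axis, against the summed TPM of B cell, monocyte and macrophage, and red cell markers, horizontal log axes, with 1 point a mouse colored by group. The number 3 marks the Control + rFibcd1 mouse with S100a9 at 46.3 TPM beside a B cell sum of 3.61 TPM, and the number 2 marks the LLC + rFibcd1 mouse at 125 TPM.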

How the data were processed

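Diaphragm RNA of 17 mice was sequenced, and the sample titles gave the groups and replicate numbers. The authors trimmed and filtered the reads, aligned them to GRCm38 (mm10) in CLC Genomics Workbench and deposited TPM per gene symbol. The annotation release is not given in the sources used here, and labels and methods name different library kits, so the use of strand is not settled. TPM sums to the same total in every mouse, so a fall in abundant muscle transcripts raises all others. Between 81.8% and 84.5% of low values were within 0.02 of a whole read at GENCODE exon lengths, which gave the read numbers. They are estimates, since lengths set the steps, and no count test was run.

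The tests used log2(TPM + 1), which understates changes of low genes, and the 13305 genes at 1 TPM or more in 3 or more mice. All 4 groups entered a limma 3.58.1 model in R 4.3.3 (means model, 13 residual degrees of freedom, trended empirical Bayes, two-sided, Benjamini-Hochberg over all genes tested, threshold 0.05). limma was used in place of the rank tests of the study and was tested on simulated data. Members and lists were chosen with earlier results of these data known. Genes named from a list were known ligands, receptors or inhibitors of a member and up to 4 with the lowest p. Cd14 was added after its values were seen. Of the listed genes 1 is not analysed here. Ly6g, of the markers, was named after its values were seen. The labels name no batch, and nothing shows whether mice shared a cage or day. Alternatives were a pseudocount of 0.1, no filter, median-ratio and quantile scaling, values without the 37 mitochondrial genes, a replicate block, empirical Bayes without trend, fits on tumor-bearing or tumor-free mice alone, exact permutation, and leaving out each mouse.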

Additional observations from a re-analysis of the deposited data

Results flagged for a closer look

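Among 27 sets of values (9 transcripts in the 3 groups of 4 or 5 mice), 3 had a mouse whose distance to its nearest neighbour was large against the group's range by Dixon's criterion, and chance alone marks about 1 set in 20. Retnlg in the third Control + rFibcd1 mouse was 7.24 TPM, against 0.123 to 0.681 TPM in the other 4. Ngp in the same mouse was 0.426 TPM, against at most 0.102 TPM in the others. Csf3r in the first Control mouse was 1.20 TPM, against 0.765 to 0.868 TPM in the other 4, a gap that is small beside the tumor difference.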

How the results depend on the processing

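No call was made for a member in any of the 3 tested comparisons under any setting, and the lowest limma adjusted p was 0.121. An unadjusted p under 0.05 was reached by 2 of 622 values, both for Mmp9 without LLC + rFibcd1 replicate 2 (0.00605 for rFibcd1 in tumor-bearing mice and 0.0367 for the interaction). The median member difference became 2.67, 2.55 and 2.61 with a pseudocount of 0.1 (LLC against Control, rFibcd1 mice, all mice), and ranged from 1.26 to 1.66, 0.97 to 1.38 and 1.21 to 1.43 when single mice were left out. The list genes called ranged from 0 to 32, 3 to 22 and 20 to 42 when single mice were left out. Calls over all genes, 4759, 1072 and 5963, ranged from 24 to 5254, 477 to 2893 and 4160 to 6629 in these 3 comparisons, from 0 to 88 (15 with all mice) for rFibcd1 in tumor-bearing mice and from 0 to 11 (0 with all mice) for the interaction. For rFibcd1 mice the 1072 became 534 with median-ratio scaling, 467 with quantile normalization and 581 without mitochondrial genes. The 15 became 2 with a pseudocount of 0.1 and 48 with no filter, and the interaction called 1 gene with no filter, median-ratio scaling or quantile normalization.

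Over 22 same-number pairs of mice from different groups, r of deviations from group means ran from -0.459 to 0.485, with 4 over 0.1. Pairs with different numbers were not compared, so whether the replicate numbers pair the mice is not settled. With the replicate block, list calls became 0, 5 and 19, and calls over all genes 5, 492 and 3782 in the tumor comparisons and 0 for rFibcd1 in tumor-bearing mice.

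The sign of some values turned, and the cause was not tested. The Il1b interaction became 0.0020, 0.063 and 0.022 (median-ratio, quantile, replicate block). For rFibcd1 in tumor-bearing mice, Cxcr2 became 0.024, 0.17 and 0.071 in the same order, and Csf3r 0.087, 0.24 and 0.13, with 0.040 without mitochondrial genes. The Cxcr2 interaction became 0.0038 with quantile normalization. Lcn2 between LLC and Control became -0.094, -0.27 and -0.043 (median-ratio, quantile, without mitochondrial genes), and over all mice -0.055 with quantile normalization. With single mice left out, rFibcd1 against mock in tumor-bearing mice ranged from -0.20 to 0.46 for S100a8, -0.0056 to 0.65 for S100a9, -0.16 to 0.35 for Il1b, -0.24 to 0.12 for Cxcr2 and -0.29 to 0.14 for Csf3r. In tumor-free mice it ranged from -0.021 to 0.87 for S100a8, -0.23 to 0.49 for Retnlg, -0.085 to 0.18 for Cxcr2, -0.21 to 0.042 for Mmp9 and -0.072 to 0.28 for Lcn2. The interaction ranged from -0.78 to 0.22 for S100a8, -0.79 to 0.30 for S100a9, -0.15 to 0.70 for Retnlg, -0.31 to 0.20 for Il1b, -0.34 to 0.048 for Cxcr2 and -0.013 to 0.38 for Lcn2. Lcn2 between LLC and Control ranged from -0.057 to 0.20.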
